A study of Homo sapiens with 18 samples.

Results

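The 76 genes described here, MRPS36 included, are named for proteins of the mitochondrial ribosome, although the MRPS36 product is now placed elsewhere. They were chosen by name, as the symbols that begin with MRPL or MRPS followed by a number and at most one of the letters A, B or C. Of 78 such symbols in the name table, 76 matched an Ensembl ID among the 16472 genes of the expression table, and MRPL45 and MRPS21 were not analysed here. All 76 passed the filter on low values, so every one was among the 13280 genes tested.

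The cells were NIKS, an established line of spontaneously immortalized human keratinocytes that grows with mouse fibroblast feeder cells. SP100, a component of PML nuclear bodies, was either wild type (WT) or knocked out (KO). RNA was sequenced without interferon (0 h) and after 12 h or 48 h of treatment with 25 ng/mL of human interferon alpha 2a, with 3 biological replicates in each of 6 groups. Each genotype is a single cell line by the table's column names, which read Vec2 for WT and KO5 for KO. No untreated library at 12 or 48 h was analysed here. Genotype therefore cannot be told apart from line, nor interferon from time in culture. The replicates are labelled biological, and what separated them is not given in the sources used here, so the p-values measure only the spread between these samples.

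Values are RPKM, reads scaled to gene length and to the library's total, so levels can be set side by side between genes. SP100 RNA itself was 29.98 ± 2.01 RPKM in WT and 15.1 ± 0.878 in KO at 0 h (SD, n = 3), 159 ± 11.2 and 89.1 ± 3.60 at 12 h, and 127 ± 3.78 and 59.8 ± 2.51 at 48 h, with no overlap between genotypes at any time. All 12 genes of an interferon response list were called higher at 12 h in WT, with a median log2 change of 6.13. All 12 keratinocyte markers were present. Of 12 fibroblast markers 4 were in the table, and their summed level, nearly all VIM, ran from 189 to 390 RPKM, lower in KO and lower after interferon; its part in the results below was not tested. Of 8 markers of leukocytes, endothelium and melanocytes 3 were in the table (CD14, CD68 and PMEL). Their summed level was 25.3 to 26.2 RPKM at 0 h and 53.9 to 59.5 at 12 h in WT, and 20.2 to 22.3 and 45.4 to 52.2 in KO, most of it CD68, while CD14 fell. Its part was likewise not tested. Relative sequencing depth, read from the steps between low values, ranged from 0.844 to 1.27 of the mean. Total reads are unknown, so no counting interval was computed.

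Mitochondria translate a small set of proteins from their own genome, all of them core subunits of the oxidative phosphorylation complexes. Their ribosome has a small subunit, which holds the messenger RNA and decodes it, and a large subunit, which forms the peptide bond. Its ribosomal RNAs come from mitochondrial DNA, while all its proteins are nuclear-encoded and imported. Some of these proteins descend from bacterial ribosomal proteins and others were added in the mitochondrial lineage. Of the 76 genes, 50 encode large-subunit proteins, including MRPS18A and MRPS30, which keep small-subunit names although their products sit in the large subunit. A further 25 encode small-subunit proteins. MRPS36 was placed in neither, because its product is now known as a component of the oxoglutarate dehydrogenase complex. By ancestry, assigned from general knowledge, 44 have a bacterial counterpart and 31 are specific to mitochondria. MRPS18A and MRPS18B are counted among the latter, although their sequences are related to bacterial S18.

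Promoters of mitochondrial ribosomal protein genes are known for sites of the nuclear respiratory factor NRF1 and of ETS-family factors such as GABP. RefSeq promoter sequences were matched for 67 of the 76 genes (GRCh38.p14). The following 6 are the 250 bases before the start of genes whose RNA changed at 12 h of interferon in both lines. MRPL17, MRPL20 and MRPS18C rose and MRPL33 and MRPS10 fell, and these 5 were picked because they hold a match. MRPS17, the gene that rose most, holds none and is shown beside them, as MRPS16 and MRPL24, which fell, hold none either. They are read 5′ to 3′ on the gene's strand. Capitals mark matches on either strand to GCGCANGCG, an NRF1 motif, or to CCGGAAG, an ETS core.
MRPL17, chr11:6683341-6683590, minus strand: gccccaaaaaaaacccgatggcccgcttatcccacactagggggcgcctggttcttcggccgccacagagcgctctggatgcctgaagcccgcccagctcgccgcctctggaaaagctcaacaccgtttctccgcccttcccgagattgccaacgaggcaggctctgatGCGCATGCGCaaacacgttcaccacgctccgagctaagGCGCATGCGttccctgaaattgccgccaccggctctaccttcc
MRPL20, chr1:1407294-1407543, minus strand: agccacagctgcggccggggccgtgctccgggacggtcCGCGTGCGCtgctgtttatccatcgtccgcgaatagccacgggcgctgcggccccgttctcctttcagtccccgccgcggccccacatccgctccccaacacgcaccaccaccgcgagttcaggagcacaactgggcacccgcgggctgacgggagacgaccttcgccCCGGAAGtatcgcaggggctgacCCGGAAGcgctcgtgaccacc
MRPS18C, chr4:83455808-83456057, plus strand: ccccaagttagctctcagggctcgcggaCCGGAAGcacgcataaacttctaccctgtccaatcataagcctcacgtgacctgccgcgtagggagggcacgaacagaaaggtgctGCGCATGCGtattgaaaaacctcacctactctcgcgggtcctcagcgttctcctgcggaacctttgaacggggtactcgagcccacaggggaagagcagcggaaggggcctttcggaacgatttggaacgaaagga
MRPS17, chr7:55951627-55951876, plus strand: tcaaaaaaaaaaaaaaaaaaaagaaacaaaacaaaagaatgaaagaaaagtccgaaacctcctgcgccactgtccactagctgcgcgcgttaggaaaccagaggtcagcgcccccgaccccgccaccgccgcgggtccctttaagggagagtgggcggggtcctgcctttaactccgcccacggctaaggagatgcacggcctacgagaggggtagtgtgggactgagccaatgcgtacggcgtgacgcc
MRPL33, chr2:27771469-27771718, plus strand: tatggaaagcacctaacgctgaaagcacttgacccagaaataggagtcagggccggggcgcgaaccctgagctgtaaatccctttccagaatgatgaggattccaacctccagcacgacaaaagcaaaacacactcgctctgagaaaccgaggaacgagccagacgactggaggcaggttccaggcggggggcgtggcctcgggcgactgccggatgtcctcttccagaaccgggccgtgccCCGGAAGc
MRPS10, chr6:42217862-42218111, minus strand: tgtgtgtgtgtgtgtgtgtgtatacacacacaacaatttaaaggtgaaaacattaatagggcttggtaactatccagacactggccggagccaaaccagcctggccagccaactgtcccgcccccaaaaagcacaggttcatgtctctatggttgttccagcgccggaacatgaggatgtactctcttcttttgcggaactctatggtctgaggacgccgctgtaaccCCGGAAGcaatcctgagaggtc

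The ETS core CCGGAAG stood in the 250-base window of 22 of the 67 promoters (32.8%), against 17.1% of the windows of 9653 genes tested and 8.82% of 27305 windows in the whole table. The longer ETS form CCGGAAGT, which contains the core, was in 13.4% of the members' windows, against 7.68% of those of genes tested. GCGCANGCG was in 12 members' windows (17.9%, against 13.8%), and AANATGGCG, a YY1 motif, in 3 (4.48%, against 2.42%). GAAANNGAA, a pattern found in interferon-stimulated response elements, was in 7 (10.4%, against 5.55%). The E-box CACGTG was in 7.46% and the CCAAT box in 26.9% of the members' windows, against 8.97% and 35.5%. The members' windows had a median GC content of 60.8%, and those of all genes tested 65.2%. Both strands were searched, and a match is only a stretch of letters.

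A gene start on the opposite strand, facing away and within 1000 bases, is common among housekeeping genes. Of the 67 members, 18 (26.9%) had such a protein-coding neighbour, against 14.4% of 9258 protein-coding genes tested. MRPL46, of the large subunit, and MRPS11, of the small subunit, are neighbours of this kind, with starts 320 bases apart. Others face SARS2, the mitochondrial seryl-tRNA synthetase (MRPS12, 181 bases), FAU, which encodes a cytosolic ribosomal protein (MRPL49, 49 bases), and PSMA2, a proteasome subunit (MRPL32, 202 bases). MRPL40 faces HIRA, a histone chaperone, at 812 bases.

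The 76 genes differed widely in level. The highest means over 18 libraries were MRPL51 at 180 RPKM, MRPS28 at 155, MRPL13 at 149 and MRPL15 at 144. The lowest were MRPL57 at 8.66, MRPL30 at 12.6, MRPL41 at 12.8 and MRPL50 at 15.2. Products of these 8 genes belong to the large subunit, except MRPS28, whose product is a small-subunit protein. The median over large-subunit genes was 53.8 RPKM and over small-subunit genes 56.5 RPKM. Together the members made up between 0.663% and 0.729% of the summed RPKM of a library.

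The members also differed in how steady they were. MRPL15 varied by 1.10-fold between its lowest and highest library and MRPL16 by 1.11-fold. MRPL30 varied by 4.34-fold, MRPS17 by 2.27-fold and MRPL55 by 2.05-fold. For MRPL30 much of this lay between replicates, since its within-group SD was 0.38 on the log2 scale, the widest of the 76.

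**Figure D1:**
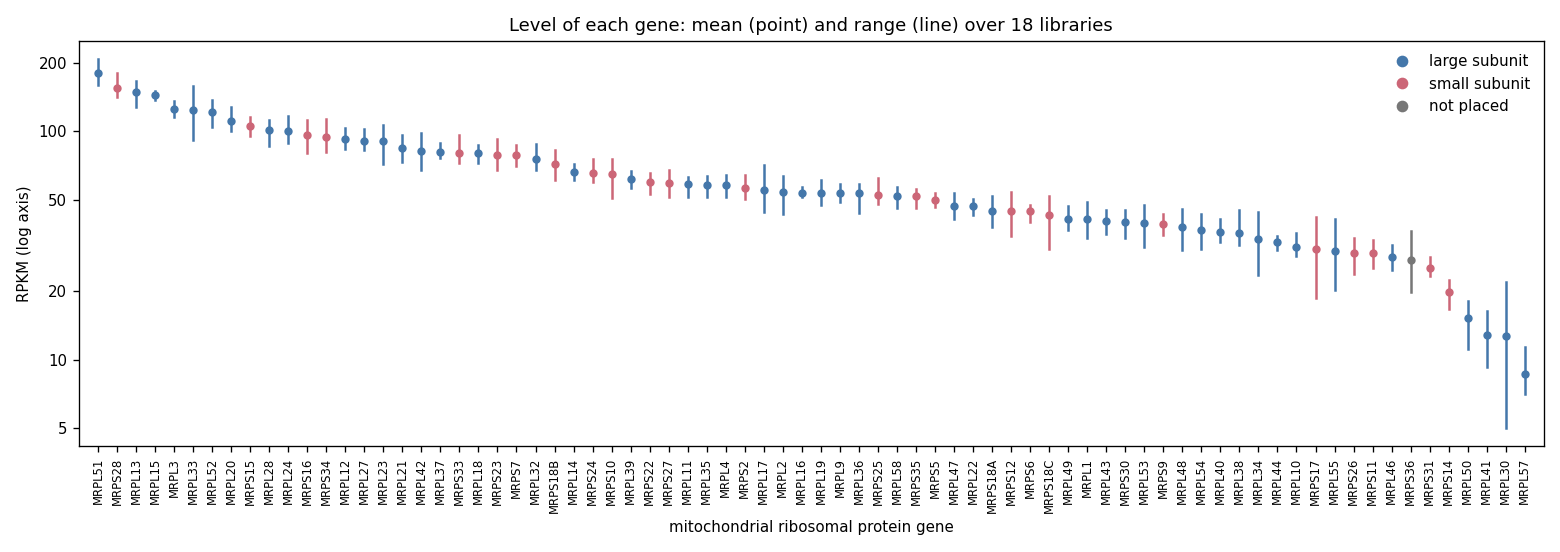
Mean RPKM of each of the 76 genes over 18 libraries (points, log axis) with the lowest and highest library (lines), coloured by ribosomal subunit. Levels run from MRPL51 at 180 to MRPL57 at 8.66 RPKM, genes of both subunits are mixed along the order, and MRPL30 has the longest line.

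After 12 h of interferon some members were called in each direction, and most were not called in WT. There 12 rose and 17 fell at an adjusted p under 0.05 (limma on log2(RPKM + 1), Benjamini-Hochberg over all genes tested). Over all genes tested 15.1% rose and 29.8% fell. The members' median log2 change was -0.03 and that of all genes tested -0.09. In KO 8 rose and 27 fell, beside 16% and 32.8% of all genes, with medians of -0.09 for the members and -0.09 for all genes. As shares of the 76, these are 15.8% and 22.4% in WT and 10.5% and 35.5% in KO. The WT share of falls and the KO share of rises were thus below the background, and the other two shares were close to it. Without replicate 1 of WT at 0 h, 19 members were called in WT in place of 29. In bulk RNA, fewer cells that express a gene and less of its RNA per cell cannot be told apart.

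The balance of these counts turns with the scaling between libraries, and the median of all genes itself moved down at 12 h. When libraries were rescaled by the median of ratios, 20 members rose and 5 fell in WT (21.3% and 20.8% of all genes), and 20 rose and 12 fell in KO (23.4% and 23.1%). Rescaling carried the members' median to 0.06 in WT and 0.02 in KO. With that scaling 6.58% of the members fell in WT, well under the background, and 26.3% rose in each line. The 12 that fell in KO were also a smaller share than the 23.1% of all genes.

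The same 8 genes made up the whole KO set of risers and 66.7% of the 12 in WT, and all 8 also rose in both lines after rescaling. They are MRPL17, MRPL20, MRPL32, MRPL54 and MRPS18A of the large subunit, and MRPS17, MRPS18C and MRPS23 of the small subunit. Because rescaling shifted the changes at 12 h upward, it could hardly remove a rise. Only the falls were put to a test by it. Of the genes that fell, 16 were shared, which is 94.1% of the WT set and 59.3% of the KO set. MRPL23, MRPL24, MRPL33, MRPS10 and MRPS16 fell in both lines under both scalings. No member was called in opposite directions in the 2 lines. The matching overlaps over all genes tested were not computed, so this agreement is not shown to be particular to the members.

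MRPS17, a small-subunit protein with a bacterial counterpart, rose most at 12 h in both lines. Its RPKM in WT was 23.2, 22.3 and 23.2 at 0 h, 42.1, 36.5 and 40.5 at 12 h, and 33.9, 38.9 and 37.6 at 48 h. In KO it was 18.5, 25.3 and 21.6 at 0 h, 31.2, 33.6 and 32.2 at 12 h, and 28.6, 27.9 and 29.4 at 48 h. Every treated library lay above every untreated library of its line. The log2 change at 12 h was 0.76 (SE 0.08, adjusted p = 2.6e-06) in WT and 0.56 (SE 0.08, adjusted p = 4.9e-05) in KO. In the GENCODE 29 annotation MRPS17 shares exons on the same strand with NIPSNAP2, so reads could be split between them. NIPSNAP2 itself gave a log2 difference at 12 h of -0.09 in WT and -0.20 in KO and was called in neither. At 48 h it was 78.9 ± 13.5 RPKM in WT, against 61.1 ± 4.92 at 0 h (SD, n = 3). In KO it was 74.8 ± 7.31 RPKM at 48 h, against 62.5 ± 6.84 at 0 h. Whether reads of one gene were counted for the other was not tested at either time.

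MRPL17, a large-subunit protein with a bacterial counterpart, rose and then partly returned. In WT it was 47.9, 44.7 and 49.4 RPKM at 0 h, 71.5, 69.7 and 64.4 at 12 h, and 60.2, 55.02 and 50.2 at 48 h. In KO it was 44.2, 47.0 and 45.2 at 0 h, 57.0, 69.9 and 65.0 at 12 h, and 54.1, 51.1 and 51.8 at 48 h. At 12 h no library of either line overlapped its 0 h or 48 h values. The log2 change at 12 h was 0.52 (SE 0.07, adjusted p = 2.7e-05) in WT and 0.48 (SE 0.07, adjusted p = 5.3e-05) in KO.

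MRPL32, a large-subunit protein that is cut by the mitochondrial AAA protease before it joins the ribosome, moved by less but with little spread. Its RPKM at 0 h was 68.8, 69.9 and 71.8 in WT and 75.1, 70.1 and 69.8 in KO. At 12 h it was 84.0, 82.8 and 80.6 in WT and 88.2, 81.5 and 85.1 in KO, above every untreated library. The log2 change was 0.23 (SE 0.05, adjusted p = 0.00092) in WT and 0.24 (SE 0.05, adjusted p = 0.00051) in KO. MRPL1, part of the stalk beside which spent transfer RNA leaves the large subunit, rose by 0.28 in WT (SE 0.09, adjusted p = 0.016). In KO its change was 0.20 with an adjusted p of 0.066 and overlapping groups.

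MRPS18C is one of the 3 human genes related to bacterial S18 and the one placed at its site in the small subunit. In WT it was 39.0, 30.4 and 37.4 RPKM at 0 h and 51.8, 48.4 and 48.1 at 12 h, a log2 change of 0.47 (SE 0.10, adjusted p = 0.0013). In KO it was 35.1, 38.7 and 38.2 at 0 h and 50.3, 47.9 and 38.7 at 12 h, and the groups overlapped. The KO change of 0.28 (adjusted p = 0.033) passed the threshold, but missed it in 5 of 26 alternative analyses. Its relative MRPS18A, of the large subunit, rose by 0.15 in WT and 0.16 in KO, while MRPS18B, of the small subunit, was among the genes that fell in both lines with the scaling as deposited.

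**Figure D2:**
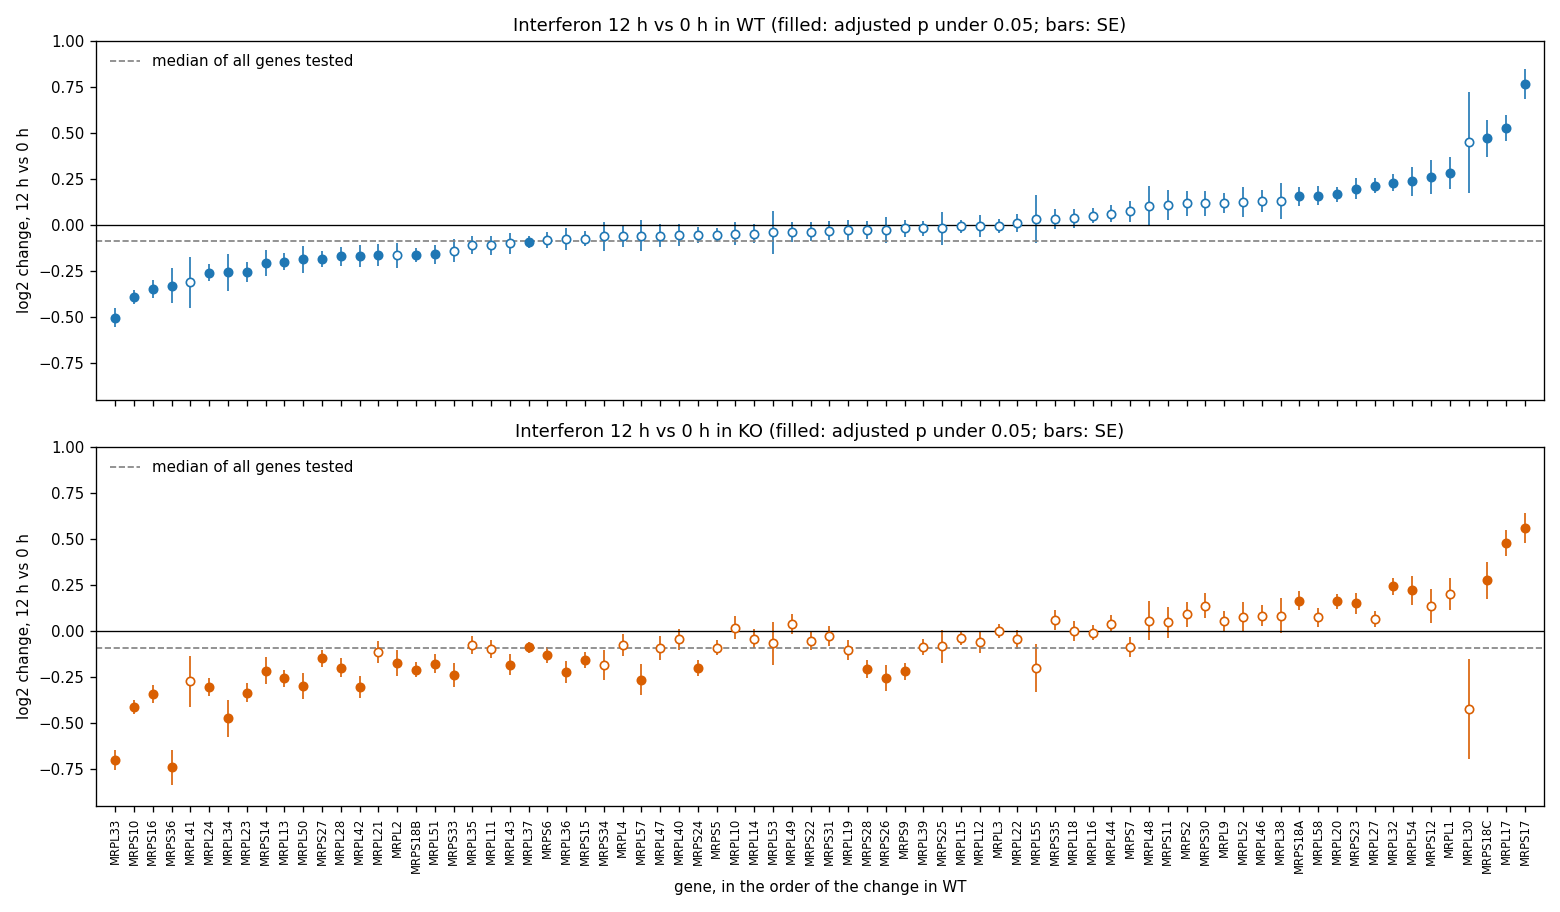
Fitted log2 change from 0 to 12 h of interferon for each of the 76 genes in WT (top) and KO (bottom), in the order of the WT change, with SE bars and filled points for an adjusted p under 0.05; the dashed line is the median of all genes tested. MRPS17 (0.76 in WT, 0.56 in KO) stands at the upper end and MRPL33 (-0.50, -0.70) at the lower end in WT, and MRPL30 has by far the widest bars.

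MRPL33, a short large-subunit protein with a bacterial counterpart, fell most in WT. It was 146, 144 and 138 RPKM at 0 h, 98.1, 102 and 101 at 12 h, and 123, 133 and 127 at 48 h. In KO it was 155, 147 and 158 at 0 h, 94.1, 91.7 and 96.1 at 12 h, and 135, 113 and 128 at 48 h. All 6 libraries at 12 h lay below all 12 others. The log2 change at 12 h was -0.50 (SE 0.05, adjusted p = 1.8e-06) in WT and -0.70 (SE 0.05, adjusted p = 3.3e-08) in KO. MRPL33 shares exons with BABAM2, a subunit of a deubiquitinating complex. BABAM2 fell too, by a log2 change of 0.40 in WT and 0.50 in KO, and whether reads of one were counted for the other was not tested.

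MRPS10 and MRPS16, both small-subunit proteins with bacterial counterparts, fell by similar amounts in the 2 lines. MRPS10 was 70.6, 69.8 and 67.8 RPKM at 0 h and 52.6, 54.3 and 51.1 at 12 h in WT. In KO it was 74.3, 75.7 and 75.8 at 0 h and 58.7, 53.4 and 56.9 at 12 h. Neither line's groups overlapped. The log2 change of MRPS10 was -0.39 (SE 0.04, adjusted p = 1.2e-06) in WT and -0.41 (SE 0.04, adjusted p = 5.4e-07) in KO. That of MRPS16 was -0.35 (SE 0.05, adjusted p = 3.6e-05) in WT and -0.34 (SE 0.05, adjusted p = 3.4e-05) in KO. DNAJC9, a histone-binding cochaperone gene that shares exons with MRPS16, moved the other way, by 0.47 and 0.53.

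MRPS36, the gene outside the ribosome proper, was 26.1, 32.5 and 31.3 RPKM at 0 h and 23.4, 25.8 and 21.6 at 12 h in WT. In KO it was 36.7, 36.5 and 32.9 at 0 h and 19.8, 20.9 and 21.6 at 12 h, so the KO groups were far apart and the WT groups close. The log2 change was -0.33 (SE 0.09, adjusted p = 0.010) in WT and -0.74 (SE 0.09, adjusted p = 1.1e-05) in KO. In WT it missed the threshold after rescaling, with an adjusted p of 0.058. MRPL34, the counterpart of a very short bacterial large-subunit protein, changed by -0.47 in KO (SE 0.10, adjusted p = 0.0010). In WT its change of -0.26 (adjusted p = 0.047) rested on overlapping groups and missed the threshold in 18 of 26 alternative analyses.

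**Figure D3:**
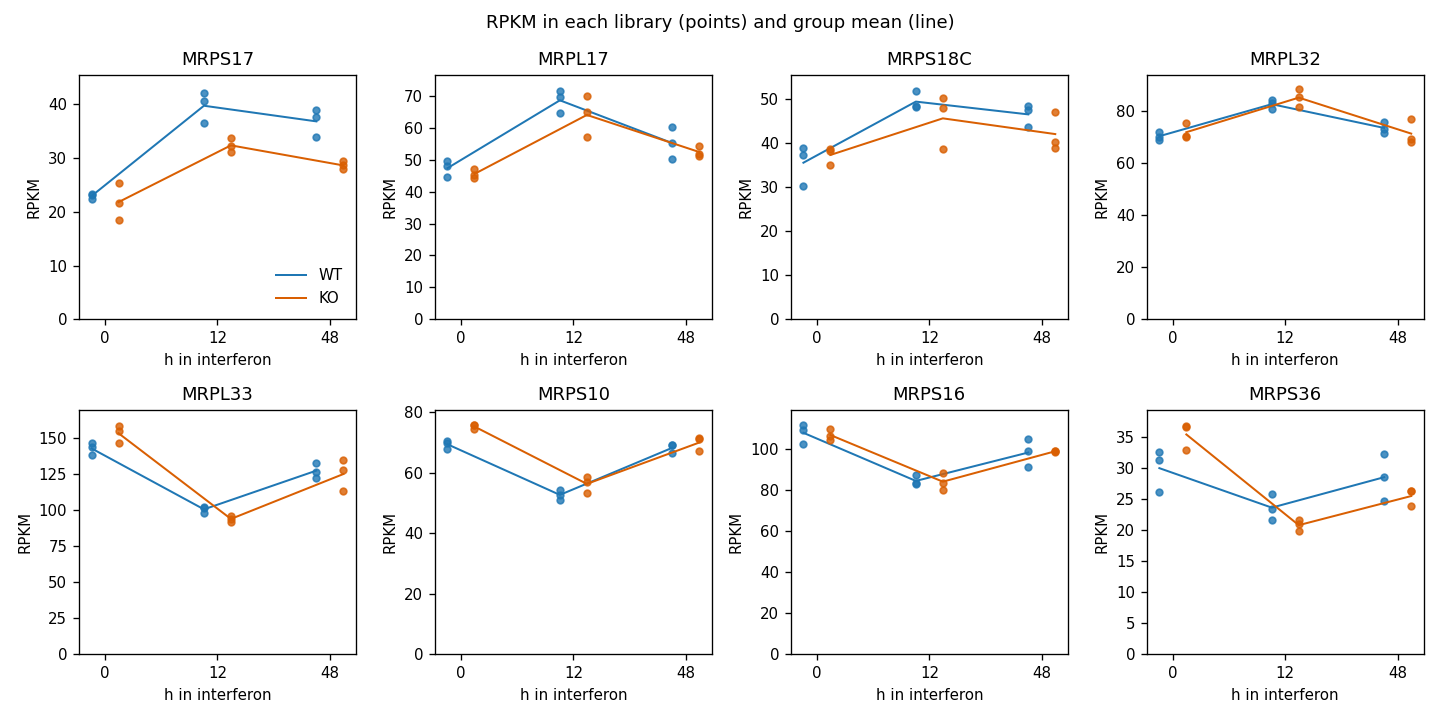
RPKM in every library (points) and group mean (lines) at 0, 12 and 48 h for 4 genes that rose at 12 h (top) and 4 that fell (bottom), WT blue and KO orange, with the times drawn at equal steps. In MRPL33 and MRPS10 the 12 h points form the low turn of a V, and MRPS17 stays high at 48 h.

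Genes of both subunits and of both kinds of ancestry rose and fell. In WT at 12 h 8 of 50 large-subunit genes rose and 11 fell, and 4 of 25 small-subunit genes rose and 5 fell. In KO the counts were 5 and 14 for the large subunit and 3 and 12 for the small subunit. Of the 44 genes with a bacterial counterpart 8 rose and 10 fell in WT, and of the 31 specific to mitochondria 4 rose and 6 fell. Among promoters, the ETS core was in 5 of 8 genes that rose in both lines (MRPL20, MRPL54, MRPS18A, MRPS18C and MRPS23). It was in 3 of 13 matched genes that fell in both lines (MRPL33, MRPL51 and MRPS10). The NRF1 motif was in 3 of the 8 and 1 of the 13, and GAAANNGAA in 0 of the 8 and 2 of the 13 (MRPL50 and MRPS18B). These promoter counts are too few to compare and were not tested. Some opposite-strand neighbours differed from the member in change. HIRA rose by 0.41 in WT and 0.46 in KO, while MRPL40 stood at -0.06 and -0.05, called in neither. NCAPD2, a condensin subunit, fell by 0.56 in WT, where its neighbour MRPL51 fell by 0.16 with the scaling as deposited.

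In 2 other protein classes measured in the same libraries nearly all calls at 12 h went downward. Of 81 cytosolic ribosomal protein genes, 0 rose and 71 fell at 12 h in WT, against 0 and 75 for KO, with median log2 changes of -0.24 and -0.28. Of 77 nuclear genes for oxidative phosphorylation subunits, most of whose complexes also hold products of the mitochondrial ribosome, 1 was higher and 61 lower in WT, and 1 was higher and 69 lower in KO. Their medians were -0.24 and -0.31. After rescaling, 58 and 62 cytosolic ribosomal genes and 42 and 56 oxidative phosphorylation genes were still called lower, in WT and KO. The classes differ in level and length, and the difference between them was described by these counts, not tested.

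**Figure D4:**
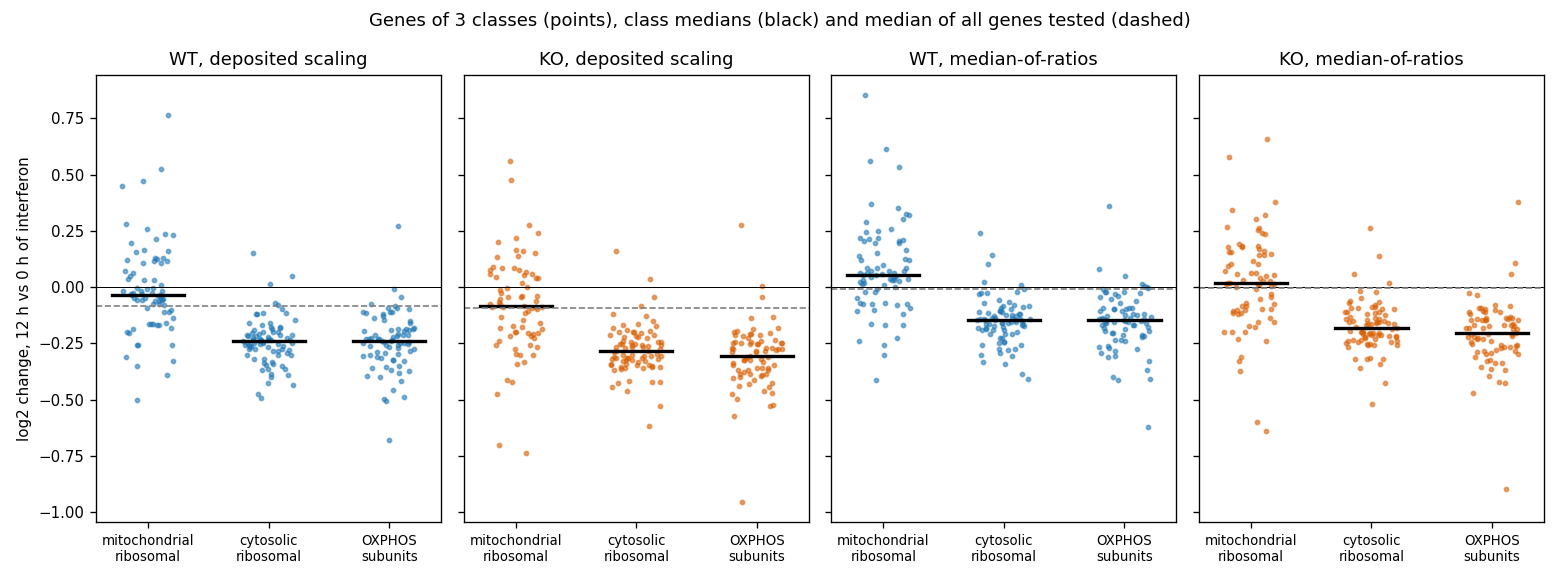
Fitted log2 change from 0 to 12 h of interferon for each mitochondrial ribosomal, cytosolic ribosomal and oxidative phosphorylation gene (points), with class medians (black bars) and the median of all genes tested (dashed), in WT and KO, as deposited (left pair) and after median-of-ratios rescaling (right pair). In WT as deposited the medians are -0.03, -0.24 and -0.24, and the mitochondrial ribosomal points lie on both sides of 0 in every panel.

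By 48 h fewer members differed from 0 h. In WT 8 rose and 1 fell, beside 6.52% and 6.3% of all genes tested, and the median log2 change was 0.07 against 0.00 for all genes. In KO 6 rose and 6 fell, beside 5.9% and 7.42%, with medians of 0.02 and -0.01. The shares in WT were above the background for rises and below it for falls, and in KO both were slightly above it. Without the library of WT replicate 2 at 0 h, 4 members were called in WT in place of 9. Without KO replicate 1 at 0 h or KO replicate 2 at 48 h, 5 were called in KO in place of 12, and 4 when the libraries of this comparison were fitted alone.

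MRPS17 stayed up, with a log2 change at 48 h of 0.66 in WT (SE 0.08, adjusted p = 4.4e-05) and 0.39 in KO (SE 0.08, adjusted p = 0.0053). MRPS23, a small-subunit protein specific to mitochondria, was 68.0, 70.8 and 69.0 RPKM at 0 h and 81.4, 88.8 and 83.4 at 48 h in WT, without overlap. Its change was 0.28 in WT (SE 0.06, adjusted p = 0.0029) and 0.18 in KO (adjusted p = 0.042). MRPS18A also rose in both lines, by 0.27 in WT (adjusted p = 0.0023) and 0.26 in KO (adjusted p = 0.0031).

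Other genes were called at 48 h in a single line, which does not show that the lines differ. In WT MRPS18C rose by 0.38 (adjusted p = 0.018, lost in 3 of 26 alternatives), where it was 48.5, 47.6 and 43.6 RPKM at 48 h. MRPS30 rose by 0.29 in WT (adjusted p = 0.0085), from 34.2, 35.3 and 35.9 RPKM to 44.1, 41.2 and 44.1. MRPL37 was the 1 gene that fell in WT, by 0.11 (adjusted p = 0.024), and it missed the threshold in 6 of 26 alternatives.

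In KO, MRPL55 was 25.9, 24.6 and 32.1 RPKM at 0 h and 41.2, 37.3 and 34.7 at 48 h, a change of 0.45 (SE 0.13, adjusted p = 0.033) that missed the threshold in 5 of 26 alternatives. MRPL2, which lies near the peptidyl transferase centre of the large subunit, rose by 0.25 (adjusted p = 0.022), and its call was lost in 4 of 26. MRPS36 stayed low in KO, at 23.8, 26.3 and 26.2 RPKM, a change of -0.46 (SE 0.09, adjusted p = 0.0038). MRPL33 was still 0.30 lower (adjusted p = 0.0012). MRPL51, the most abundant member, went from 200, 207 and 190 RPKM to 165, 169 and 170, a change of -0.24 (adjusted p = 0.0067). MRPS33 changed by -0.20 (adjusted p = 0.046), but its groups overlapped and the call was lost in 19 of 26 alternatives.

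Between 12 and 48 h, 22 members rose and 4 fell in WT, beside 24.6% and 11.3% of all genes tested. In KO 28 rose and 6 fell, beside 27.7% and 14%. After rescaling the counts were 10 and 8 in WT (16.2% and 18% of all genes) and 14 and 11 in KO (19.3% and 20.9%). This comparison shares its 12 h libraries with the 12 h against 0 h comparison, so the comparisons are not independent.

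MRPS10 rose again toward its 0 h level, to 66.4, 69.1 and 69.2 RPKM in WT and 71.6, 67.1 and 71.2 in KO at 48 h. Its log2 change from 12 h was 0.37 in WT (SE 0.04, adjusted p = 4.5e-06) and 0.31 in KO. MRPL33 rose by 0.34 in WT (adjusted p = 0.00015) and 0.41 in KO, and MRPL34 by 0.36 in WT (adjusted p = 0.010) and 0.54 in KO (adjusted p = 0.00049). MRPL41 also passed in WT, with a change of 0.37 (adjusted p = 0.045), although its groups overlapped and 18 of 26 alternatives lost the call.

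The 4 genes that fell from 12 to 48 h in WT were MRPL1, MRPL17, MRPL20 and MRPL32. MRPL17 fell by 0.31 in WT (adjusted p = 0.0032) and 0.28 in KO (adjusted p = 0.0056). MRPL32 fell by 0.17 (adjusted p = 0.011) and 0.25 (adjusted p = 0.00047). MRPL1 fell by 0.25 (adjusted p = 0.031) and 0.28 (adjusted p = 0.017), calls lost in 5 and 2 of 26 alternatives. MRPL20 fell by 0.19 in WT (adjusted p = 0.0025). In KO MRPL48 fell by 0.34 (SE 0.11, adjusted p = 0.019, lost in 2 of 26), and MRPL20 and MRPL54 completed the 6.

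The largest change of this interval was MRPL30 in KO, from 5.03, 8.37 and 11.9 RPKM at 12 h to 18.9, 19.8 and 21.8 at 48 h. Its log2 change was 1.23 (SE 0.27, adjusted p = 0.0019), and the 12 h libraries were spread widely although all lay below those at 48 h. In GENCODE 29 MRPL30 shares exons on its strand with 2 other genes, and the effect on its values was not tested. In WT the same gene was 11.7, 7.40 and 18.8 RPKM at 12 h and 11.0, 18.4 and 15.8 at 48 h, groups that overlapped. MRPL55, also in KO, rose by 0.65 (SE 0.13, adjusted p = 0.00093) and MRPL57 by 0.45 (SE 0.08, adjusted p = 0.00056).

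Few differences in these genes were called between KO and WT. Most small changes were missed in simulated data, so few calls do not show that few genes differed. At 0 h 1 member was higher in KO and 0 were lower, beside 2.82% and 2.07% of all genes tested. At 12 h limma called 0 of 76 (1.6% of all genes higher, 2.02% lower), and 9 had an unadjusted p under 0.05, beside 2256 of the 13280 genes tested. At 48 h 0 were higher and 1 was lower (2.03% and 2.16%). All 3 shares were at or below the background. Median differences of the members were 0.03 at 0 h, -0.01 at 12 h and -0.01 at 48 h. Those of all genes tested were 0.02, 0.01 and 0.01.

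The gene higher at 0 h was MRPS9, a small-subunit protein with a bacterial counterpart. It was 37.1, 38.9 and 38.0 RPKM in WT and 43.4, 42.1 and 43.4 in KO, without overlap, a log2 difference of 0.17 (SE 0.05, adjusted p = 0.038). The call was lost in 12 of 26 alternatives, and after rescaling the adjusted p was 0.075. At 12 and 48 h the difference was -0.03 and -0.07, with adjusted p of 0.83 and 0.50.

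The gene lower at 48 h was MRPS17, at 36.8 ± 2.599 RPKM in WT and 28.6 ± 0.740 in KO (SD, n = 3), a log2 difference of -0.35 (SE 0.08, adjusted p = 0.024) with no overlap between the 48 h libraries listed above. This call was lost in 5 of 26 alternatives, each of which left out a 48 h library of this comparison. It thus rested on nearly every one of its libraries. At 12 h its difference was -0.29 with an adjusted p of 0.074, again with every KO library below every WT library. At 0 h the difference was -0.08 (adjusted p = 0.68) and the groups overlapped.

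The genotype by interferon interaction, which tests whether the response itself differed between the lines, was called by limma for 0 members at 12 h and 0 at 48 h, beside 0.0753% and 0.0828% of all genes tested. At an unadjusted p under 0.05 there were 8 and 9 of 76 members, against 764 and 826 of the 13280 genes tested. At this looser threshold the members' shares were the larger, which was not tested. With each library left out in turn, the members' median interaction ran from -0.0569 to -0.0367 at 12 h. At 48 h it ran from -0.0738 to -0.0438. Medians of all genes tested were -0.0110 and -0.0107. For MRPS17 the interaction was -0.21 (SE 0.12, adjusted p = 0.92) at 12 h and -0.27 (SE 0.12, adjusted p = 0.78) at 48 h. For MRPS36 it was -0.41 (SE 0.13, adjusted p = 0.63) at 12 h. For MRPS9 it was -0.24 (SE 0.06, adjusted p = 0.44) at 48 h. The larger fall of MRPS36 in KO was therefore not separated from replicate error after adjustment.

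Genes that work beside the ribosome were followed from lists of known members, whose counts at 12 h stand beside 15.1% higher and 29.8% lower among all genes in WT and 16% and 32.8% in KO. The 5 ribosomal proteins with other symbols (DAP3, PTCD3, CHCHD1, AURKAIP1 and GADD45GIP1) had 0 calls at 12 h in WT, with 0 at an unadjusted p under 0.05, and in KO CHCHD1 alone was called (-0.20, adjusted p = 0.016). Of 16 translation factors, WT had 2 that rose and 4 that fell, and KO 2 and 7. MTIF3, an initiation factor, went from 27.7 to 20.6 RPKM in WT (log2 change -0.40, adjusted p = 0.00039) and by -0.42 in KO. OXA1L, which inserts the new proteins into the inner membrane, fell by 0.31 in WT and 0.25 in KO. MTRF1L, a release factor, rose by 0.29 and 0.38.

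Of 19 aminoacyl-tRNA synthetases that act in mitochondria, WT had 2 that rose and 4 that fell, and KO 1 and 6. GARS1, whose product serves both the cytosol and mitochondria, was higher in KO at all 3 times, by 0.30 at 0 h (adjusted p = 0.00066), 0.21 at 12 h (adjusted p = 0.013) and 0.20 at 48 h (adjusted p = 0.016). RARS2 was 0.22 higher in KO at 12 h (adjusted p = 0.0064). At 12 h in WT VARS2 fell by 0.29 and RARS2 by 0.23. Of 24 assembly and rRNA modification genes, WT had 3 that rose and 4 that fell, and KO 4 and 4. The 3 largest changes in WT were RPUSD3, a pseudouridine synthase family protein (-0.52), and the methyltransferases TFB1M (-0.45) and METTL15 (-0.45), which modify the small-subunit rRNA.

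Of 14 genes for mitochondrial transcription and its regulators, WT had 5 that rose and 1 that fell, and KO 2 and 2. TFAM, which packages mitochondrial DNA and starts its transcription, went from 44.6 to 54.2 RPKM in WT (log2 change 0.27, adjusted p = 0.00029) and rose by 0.20 in KO. PPRC1, a coactivator of the nuclear respiratory factors, rose by 0.24 and 0.18. GABPA, the DNA-binding part of GABP, fell by 0.25 and 0.24. After rescaling, WT had 7 that rose and 1 that fell, beside 21.3% and 20.8% of all genes, and in KO 8 rose, beside 23.4%.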

How the data were processed

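RNA of 18 libraries was measured as RPKM per Ensembl gene, rounded to 2 decimals. The submitters' processing notes name cutadapt, STAR 2.6.1, RSEM 1.3.0, limma 3.50.3 and genome build hg19, without roles. The authors deposited these RPKM values and no counts are used here, so no count model was fitted. Depth is known only in relative terms.

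Here, log2(RPKM + 1) was fitted in limma 3.58.1 under R 4.3.3, as group means over all 18 libraries with a variance trend. Genes at 1 RPKM or more in at least 3 libraries were tested. P-values were adjusted by Benjamini-Hochberg per comparison, with a threshold of 0.05, over 11 comparisons. Fold changes on this scale understate low genes. The fit was tested on simulated data, where its false calls for KO against WT at 0 h exceeded the nominal rate and most small changes were missed; the test's pass limits were changed after a first run failed them.

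Members and lists were chosen with earlier results of these data known. Subunit and ancestry came from general knowledge, and MRPL55 and MRPS18A were moved to the mitochondria-specific class after a first run. The cytosolic ribosomal and oxidative phosphorylation lists, the ETS core motif, the overlapping and neighbouring genes and the depth filter were set after the values were seen. Named genes were the 4 largest rises and falls called per interferon comparison, each gene called between genotypes, and the 4 highest and lowest in level. Where a gene was named at 12 h in one line, the other line was given too. Context lists gave the 3 largest changes at 12 h in WT and calls between genotypes. Some genes of these lists are not reported here. Exon overlaps were looked up by Ensembl ID and pseudogenes by name in GENCODE 29, and neighbours by name in RefSeq. The build of these references differs from the files'. Of the members, 16 share exons on their strand with another gene and 32 have named pseudogenes, so their counts may be uncertain. Alternatives were median-of-ratios scaling, a pseudocount of 0.1, a filter on mean RPKM (5 or more) or none, a separate fit per comparison, no trend, a replicate block, the last with the scaling (added after the data were seen), and each library left out.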

Additional observations from a re-analysis of the deposited data

How the results depend on the processing

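Of 51 values for named genes under 26 alternative analyses each (1326 in all), 1208 kept their direction and their side of the threshold, 114 kept the direction but lost the call, 4 gained a call and 0 reversed. Many of these alternatives left out a library that the comparison does not use, and so could not change its direction. The counts are therefore not a measure of robustness. Median-of-ratios scaling, alone or with the replicate block, moved the members' median log2 change to 0.0551 (12 h against 0 h in WT), 0.0174 (the same in KO), 0.0120 (48 h against 12 h in WT), -0.0291 (the same in KO) and 0.00995 (KO against WT at 0 h). The same scaling brought the median of all genes at 12 h near 0, as it does by its construction. The source of these shifts was not tested. For KO against WT at 0 h the count of 1 member became 0 with the scaling, 0 with the scaling and the block, 0 in a fit of that comparison's libraries alone, 0 without a variance trend, and 2 with a mean RPKM of at least 5. In KO at 48 h against 0 h the fit alone gave 4.

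Leaving out each library in turn, counts of members called ran from 19 to 31 (12 h in WT), 29 to 35 (12 h in KO), 4 to 11 (48 h against 0 h in WT), 5 to 13 (the same in KO), 18 to 29 (48 h against 12 h in WT) and 26 to 35 (the same in KO). Between genotypes they ran from 0 to 2, 0 to 1 and 0 to 2 at 0, 12 and 48 h, and stayed at 0 for both interactions. The lowest and highest medians were -0.0358 and -0.0214 (12 h in WT), -0.0922 and -0.0747 (12 h in KO), 0.0523 and 0.0807 (48 h in WT), -0.00676 and 0.0222 (48 h in KO), 0.0750 and 0.107 (48 h against 12 h in WT) and 0.0466 and 0.0860 (the same in KO). Between genotypes they were 0.0284 and 0.0459 at 0 h, -0.0272 and 0.00329 at 12 h, and -0.0282 and -0.0106 at 48 h, and for the interactions -0.0569 and -0.0367 at 12 h and -0.0738 and -0.0438 at 48 h. The MRPS9 call at 0 h was lost without WT replicate 2 or 3, or KO replicate 1 or 2, at 0 h. These are only part of the 12 alternatives that lost it. The MRPS17 call at 48 h was lost without WT replicate 2 or 3, or any KO replicate, at 48 h. In each of the leave-outs named here 1 group was left with fewer libraries, and the cause was not tested further.

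Replicate numbers did not pair the libraries: correlations of deviations between same-numbered libraries ran from -0.10 to 0.16, with 2 of 45 over 0.1, and 2 of 18 libraries correlated best with their own number. With the number as a block, 27 members were called at 12 h in WT and 34 in KO, and 25 and 33 between 12 and 48 h. With the block and the scaling together, 48 h against 12 h in WT gave 16 in place of 26. Depth is known only in relative terms, so small changes of low members such as MRPL57 and MRPL41 could not be set against counting error.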
